A study of Mus musculus with 9 samples.

Results

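The costimulatory and checkpoint ligands are surface proteins by which one cell raises or lowers the activity of a T cell. The set held 9 genes, Cd80, Cd86, Cd274, Pdcd1lg2, Cd40, Icosl, Cd276, Tnfsf4 and Tnfsf9, out of 37316 genes named on the array, and all 9 were among the 29410 genes tested. They were chosen by name, with no measured value in the rule, and every non-control probe that the array files name for them was taken, which gave 17 of 56585 probes. All 17 were well above background on each of the 9 arrays.

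The study asked how megakaryocytes of the mouse bone marrow change their gene expression after ionizing radiation (IR). Total RNA of mature megakaryocytes (mMKs), enriched from bone marrow through the lineage antigens CD41 and CD42d, was labelled with Cy3 and read on 1-colour Agilent arrays of 60-base probes. There were 3 groups of 3 arrays, all from male wild-type C57BL/6 mice: sham-irradiated controls (Ctrl), mice at 1 day after a single total-body dose of 5 Gy of γ-rays (1 dpi), and mice at 3 days after the same dose (3 dpi). Each time point came from 3 independent experiments with different donors. The age of the mice and whether several mice were pooled for an array are not given in the sources used here, so p-values measure the spread between these 9 samples. Ctrl replicate 1 lay alone on slide 1 and the other 8 arrays lay on slide 2, so a slide effect and that array cannot be told apart, and calls of named genes that change without it are stated.

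CD80 and CD86 on an antigen-presenting cell bind CD28, which costimulates a T cell, and CTLA-4, which restrains it. PD-L1 (Cd274) and PD-L2 (Pdcd1lg2) bind the inhibitory receptor PD-1, while ICOSL, OX40L (Tnfsf4) and 4-1BBL (Tnfsf9) bind ICOS, OX40 and 4-1BB on activated T cells. CD40 differs from the others in that it receives the signal of CD40L from helper T cells, and B7-H3 (Cd276) is a B7 family member whose receptor is not settled. Megakaryocytes carry antigen-presenting molecules and can present antigen to T cells, which is why the expression of these ligands in them is of interest.

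Levels are given as log2 intensity minus the 75th percentile of the array, so that 0 is the 75th percentile. A level of one probe is set against that of another only to name the brightest probe and in the marker sums. A share of such a sum is a share of signal and does not compare amounts of RNA. A gene or probe was called when limma gave a Benjamini-Hochberg adjusted p under 0.05 and the change was at least 2-fold. On this scale the median change of all genes was 0.25 at 1 dpi and 0.11 at 3 dpi against Ctrl, and −0.11 at 3 dpi against 1 dpi, so changes of members are also given relative to the median. Without Ctrl replicate 1 the first 2 of these medians were 0.15 and 0.0085, so they rest in part on that array. With 3 arrays on each side, an exact permutation test (two-sided) reaches 0.1 at the lowest, and the comparisons of 1 and 3 dpi with Ctrl share the same 3 control arrays.

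With the brightest probe standing for each gene, 2 of the 9 ligands were called higher at 1 dpi than in Ctrl, Cd274 and Tnfsf4, and 0 were called lower. Of all genes tested, 12.3% were called higher and 2.87% lower in this comparison. At 3 dpi, 3 of 9 were called higher than in Ctrl, Cd86, Tnfsf4 and Tnfsf9, and 0 lower, against 6.98% and 1.82% of all genes. Between 3 dpi and 1 dpi limma called 0 of 9, where 3.97% of all genes were called higher and 4.82% lower. In that comparison 7 of 9 had an unadjusted p under 0.05 by limma and 8 by the unpaired test that the methods name, against 52.5% and 57.5% of all genes. The same 7 had an adjusted p under 0.05, as had 44.6% of all genes, each with a change under 2-fold. The median log2 fold change of the 9 ligands was 0.70 at 1 dpi and 0.70 at 3 dpi against Ctrl, and 0.29 at 3 dpi against 1 dpi. Counted relative to the median of all genes, 1, 2 and 0 ligands were called in the 3 comparisons, since Cd274 at 1 dpi (0.88) and Tnfsf9 at 3 dpi (0.99) then lay under 2-fold. Without Ctrl replicate 1 these values relative to the median were 0.94 and 1.1, so that of Tnfsf9 was over 2-fold, as it was without 3 dpi replicate 2 (1.01) or 3 (1.02).

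These calls rest on which probe stands for a gene. Taken one by one, 7 of the 17 probes were called higher at 1 dpi and 10 at 3 dpi than in Ctrl, and 0 were called lower, against 11.6% higher and 3.02% lower of all 44300 probes at 1 dpi and 6.58% and 1.86% at 3 dpi. At 3 dpi against 1 dpi, 1 of 17 was called higher and 3 lower, against 3.75% and 5.03% of all probes. The 7 probes at 1 dpi belonged to 4 genes, Cd80, Cd274, Icosl and Tnfsf4, and the 10 at 3 dpi to 4 genes, Cd80, Cd86, Tnfsf4 and Tnfsf9. Of the 4 genes with several probes, the probes of Cd86 and of Tnfsf4 gave one sign and the same call in each comparison against Ctrl, while those of Cd80 and of Icosl differed in sign or call in both. The log2 table that the authors deposited, which has 1 value per gene, called Cd80, Cd274, Icosl and Tnfsf4 at 1 dpi and Cd80, Cd86, Tnfsf4 and Tnfsf9 at 3 dpi against Ctrl, and Cd80, Cd86 and Icosl at 3 dpi against 1 dpi.

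**Figure D1:**
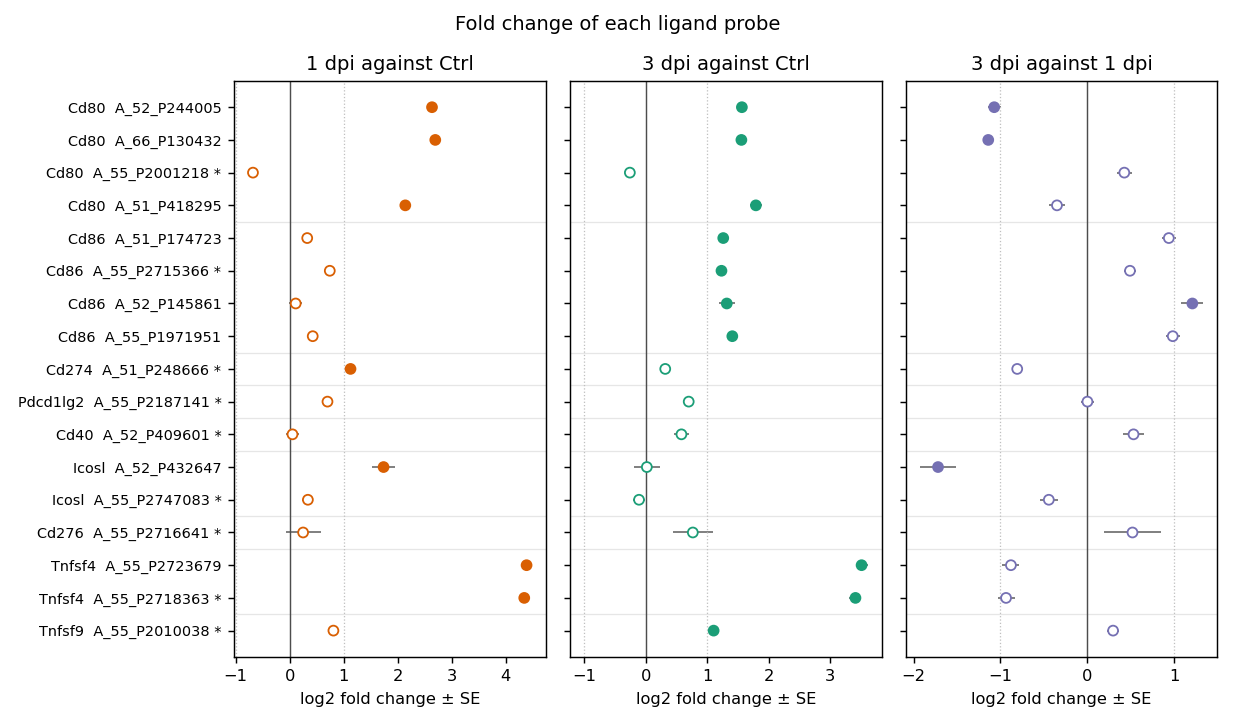
Log2 fold change (x axis) of each of the 17 probes (y axis) with its SE in the 3 comparisons, with filled symbols for called probes, an asterisk for the probe that stands for its gene and dotted lines at a 2-fold change. The Tnfsf4 probes lie at 4.34 and 4.38 at 1 dpi, and the Cd80 probes spread from −0.68 to 2.69.

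Cd80 encodes the ligand with the higher affinity for CD28 and CTLA-4, and its 4 probes gave opposite pictures. In the order of the transcript they start at bases 583, 872, 1457 and 2338 of the transcripts that the array files give for them, and the brightest, at 1457, stood for the gene. They are shown because the direction of Cd80 depends on them. The array files place the probes on mm9, no exon or UTR was assigned because no annotation of that build was used, and the probes at 1457 and 2338 are shown by 30 of their 60 bases. Capitals in the probe at 1457 mark a run of 28 bases that, with both strands searched, is also found in the RefSeq promoter of the non-coding gene Gm40192 in the build GRCm38.p6.
Cd80 at 583, A_52_P244005, chr16:38474174-38474233, + strand: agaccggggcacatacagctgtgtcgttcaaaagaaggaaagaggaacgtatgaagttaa
Cd80 at 872, A_66_P130432, chr16:38479343-38479402, + strand: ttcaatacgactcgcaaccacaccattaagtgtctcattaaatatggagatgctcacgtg
Cd80 at 1457, A_55_P2001218, chr16:38486772-38486831, + strand: gGTGCCTAGTCTTACTGCAACTTGATATGt
Cd80 at 2338, A_51_P418295, chr16:38495628-38495688, + strand: gattcctggaagtggcttttgctctttgga

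The Cd80 probe at 872 read −2.58, −2.66 and −2.62 in Ctrl, 0.08, 0.12 and 0.02 at 1 dpi, and −1.14, −1.0 and −1.05 at 3 dpi. Its 3 groups did not overlap, with the 1 dpi arrays highest and Ctrl lowest. The rise was 6.48-fold at 1 dpi (log2 fold change 2.69 ± 0.06 (SE), adjusted p = 2.69e-07) and 2.94-fold at 3 dpi (1.55 ± 0.06, adjusted p = 1.87e-06), or 2.47 and 1.48 above the median change of all probes. The probe at 583 read −3.19, −3.10 and −3.16 in Ctrl, −0.43, −0.52 and −0.61 at 1 dpi, and −1.68, −1.57 and −1.52 at 3 dpi. It rose 6.21-fold and 2.95-fold (adjusted p = 4.15e-07 and 3.52e-06), in the same order of groups as the probe at 872. The probe at 2338 read −4.05, −3.90 and −3.85 in Ctrl, −1.81, −1.77 and −1.80 at 1 dpi, and −2.32, −2.06 and −2.05 at 3 dpi, and rose 4.41-fold and 3.46-fold (adjusted p = 2.58e-06 and 5.48e-06), and after normexp background correction with quantile normalization 2.53-fold and 2.21-fold. At each of these probes all irradiated arrays lay above all controls. The share of all probes whose groups part in this way was not computed.

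The Cd80 probe at 1457 went the other way. It read 2.44, 2.58 and 2.62 in Ctrl, 1.77, 1.86 and 1.96 at 1 dpi, and 2.19, 2.28 and 2.39 at 3 dpi. Here the controls were highest and the 1 dpi arrays lowest, again without overlap. The log2 fold change was −0.68 ± 0.09 (SE) at 1 dpi (adjusted p = 0.000438) and −0.26 ± 0.09 at 3 dpi (adjusted p = 0.0551), both under 2-fold (−0.99 and −0.38 with arrays scaled to their median), so Cd80 was not called through its brightest probe. With the mean of the 4 probes in its place the gene's log2 fold change was 1.70 at 1 dpi and 1.16 at 3 dpi, and by the deposited values 2.61 and 1.49. The deposited values of Cd80 followed the probe at 872 with r = 0.999 over the 9 arrays. Which of the 4 probes reads the Cd80 mRNA of these cells was not tested.

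Cd86, the other ligand of CD28 and CTLA-4, was higher at 3 dpi by all 4 of its probes. Its brightest probe, A_55_P2715366, which the array files assign to a transcript model other than that of the remaining 3, read −0.47, −0.45 and −0.45 in Ctrl, 0.30, 0.29 and 0.25 at 1 dpi, and 0.89, 0.76 and 0.66 at 3 dpi. The groups were separate and the order was Ctrl, 1 dpi, 3 dpi. The rise at 3 dpi was 2.35-fold (log2 fold change 1.23 ± 0.07 (SE), adjusted p = 1.03e-05), or 1.16 above the median change of all probes. At 1 dpi the log2 fold change was 0.74 ± 0.07 (adjusted p = 0.000116), which is 1.67-fold and was not called.

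The other Cd86 probes gave the same rise at 3 dpi but a smaller difference at 1 dpi. The probe A_51_P174723, at base 815 of the transcript, read −4.14, −4.19 and −4.08 in Ctrl, −3.69, −3.87 and −3.88 at 1 dpi, and −2.97, −2.81 and −2.85 at 3 dpi. It is printed whole as the Cd86 probe nearest to the start of the transcript.
Cd86 at 815, A_51_P174723, chr16:36615381-36615440, - strand: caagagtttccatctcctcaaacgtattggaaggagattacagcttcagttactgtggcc
The probe A_52_P145861 read −3.33, −3.32 and −3.32 in Ctrl, −3.29, −3.19 and −3.15 at 1 dpi, and −2.30, −1.92 and −1.79 at 3 dpi. The probe A_55_P1971951 read −1.42, −1.63 and −1.58 in Ctrl, −1.03, −1.11 and −1.21 at 1 dpi, and −0.07, −0.19 and −0.15 at 3 dpi. In each of these probes the 3 dpi arrays lay clear above the rest, and the step from Ctrl to 1 dpi was small. The fold at 3 dpi was 2.39, 2.49 and 2.65 for the 3 probes in this order (adjusted p = 1.47e-05, 0.000146 and 1.03e-05). The first call was lost after normexp background correction (log2 fold change 0.80 with the 75th percentile and 0.69 with quantile normalization, in place of 1.26), and the second after normexp with quantile normalization (0.92, in place of 1.32). At 1 dpi the log2 fold changes were 0.32, 0.11 and 0.43 (adjusted p = 0.0092, 0.465 and 0.00321), and relative to the median change of all probes 0.10, −0.11 and 0.20. In the deposited table Cd86 lay at −0.18 at 1 dpi, so no direction at that time is given for the gene.

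**Figure D2:**
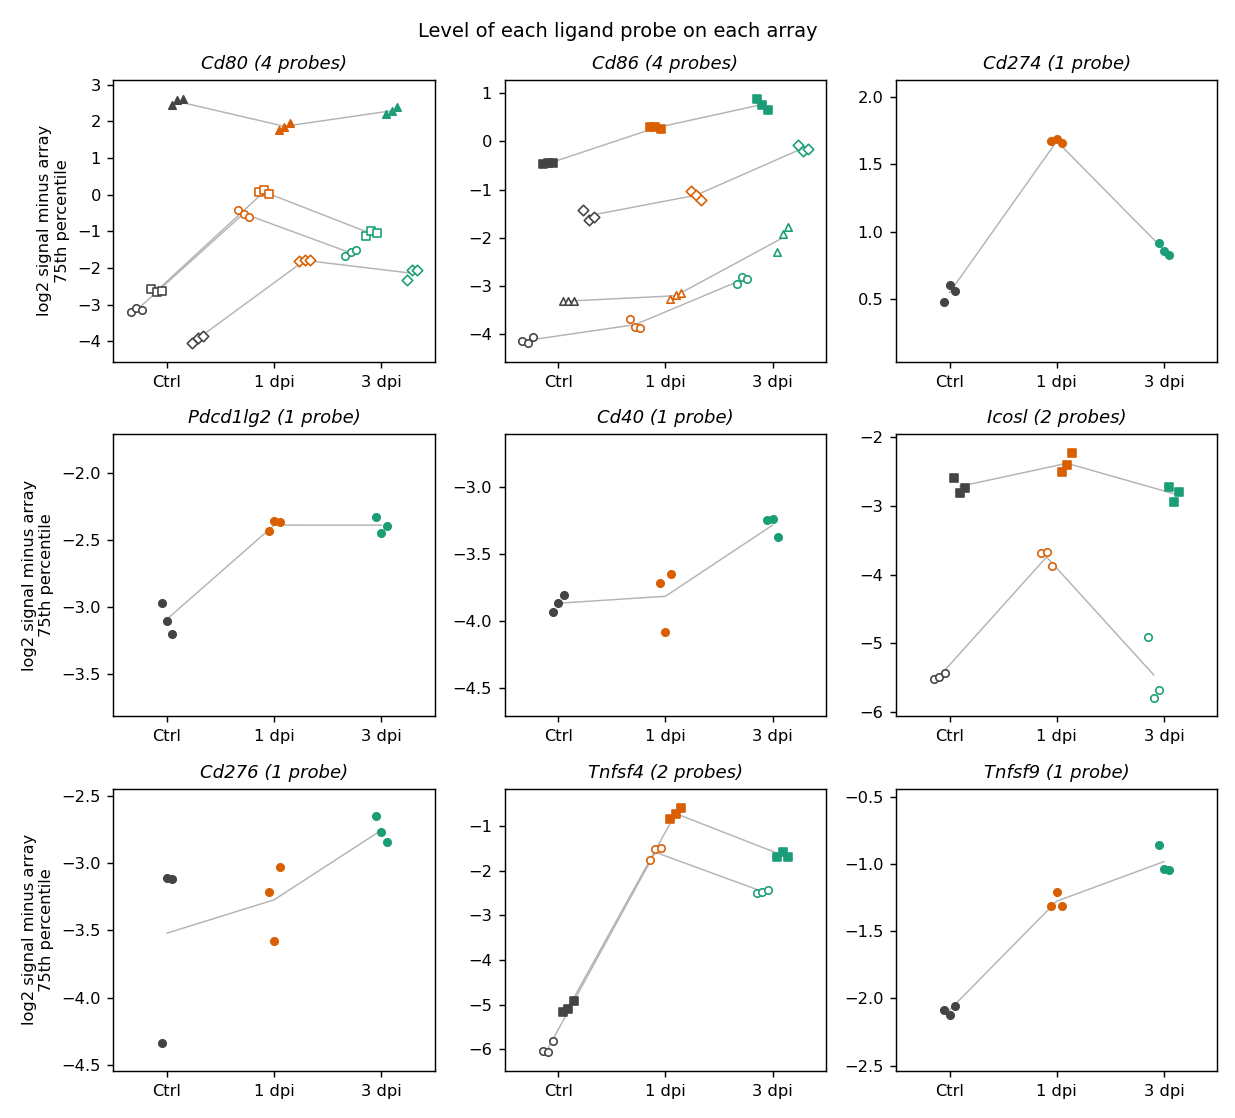
Level (log2 intensity minus the array's 75th percentile, y axis) of every probe of the 9 ligands on each array, by group (x axis), with filled symbols for the probe that stands for the gene and lines joining group means. The brightest Cd80 probe falls from a mean of 2.54 in Ctrl to 1.86 at 1 dpi while the other 3 rise, and both Tnfsf4 probes rise from means of −5.97 and −5.06 to −1.59 and −0.72.

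Cd274 encodes PD-L1 and has 1 probe on the array. It read 0.47, 0.61 and 0.56 in Ctrl, 1.67, 1.69 and 1.66 at 1 dpi, and 0.91, 0.85 and 0.83 at 3 dpi. The 1 dpi arrays were the highest and had an SD of 0.01, and the 3 dpi arrays lay between them and Ctrl. The rise at 1 dpi was 2.18-fold (log2 fold change 1.13 ± 0.06 (SE), adjusted p = 7.25e-06). It was 0.90 relative to the median change of all probes, and with arrays scaled to their median the gene's log2 fold change was 0.81, so the call was lost under either. At 3 dpi the log2 fold change against Ctrl was 0.32 ± 0.06 (adjusted p = 0.00517; 0.19 with median scaling), and against 1 dpi −0.81 ± 0.06 (adjusted p = 6.92e-05), both under 2-fold.

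Pdcd1lg2 encodes PD-L2 and also has 1 probe. It read −2.97, −3.10 and −3.20 in Ctrl, −2.44, −2.36 and −2.37 at 1 dpi, and −2.33, −2.45 and −2.40 at 3 dpi. All irradiated arrays lay above all controls, and those of 1 and 3 dpi overlapped. The log2 fold change was 0.70 ± 0.08 (SE) at both times (adjusted p = 0.00021 and 0.0003), which is 1.62-fold and was not called (0.34 and 0.45 after normexp with quantile normalization), and 1 and 3 dpi were not distinguished (adjusted p = 0.996).

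Cd274 and Pdcd1lg2 lie close to each other on chromosome 19, and their promoters are shown because both genes had higher levels at 1 dpi. RefSeq's table for GRCm38.p6 lists promoters, 250 bases before to 50 after the start, for 5 of the 9 ligands; Cd86, Cd40, Tnfsf4 and Tnfsf9 are named only. Both strands were searched for the cores of the interferon response elements GAS (TTCNNNGAA) and ISRE, for an NF-κB motif and for a p53 motif, which are found in 8.3%, 3.44%, 4.51% and 8.36% of 32851 promoters. The NF-κB motif was found once among the 5, at bases 7 to 16 of the Pdcd1lg2 promoter and in capitals here, and it matched on both strands. The other motifs have no match in these 5 windows, which says nothing of the factors that act on the genes.
Cd274, chr19:29367188-29367487, + strand: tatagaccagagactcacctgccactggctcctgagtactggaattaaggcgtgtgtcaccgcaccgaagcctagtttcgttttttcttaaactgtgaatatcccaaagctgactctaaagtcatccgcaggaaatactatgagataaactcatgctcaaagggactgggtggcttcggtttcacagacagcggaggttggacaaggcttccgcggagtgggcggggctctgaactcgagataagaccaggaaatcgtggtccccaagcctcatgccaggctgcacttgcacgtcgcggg
Pdcd1lg2, chr19:29410669-29410968, + strand: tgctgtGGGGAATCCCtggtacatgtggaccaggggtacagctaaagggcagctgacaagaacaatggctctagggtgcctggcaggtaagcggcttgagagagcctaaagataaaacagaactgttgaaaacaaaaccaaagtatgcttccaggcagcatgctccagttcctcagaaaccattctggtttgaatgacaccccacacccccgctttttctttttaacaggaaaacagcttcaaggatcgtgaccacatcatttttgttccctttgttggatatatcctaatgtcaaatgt

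Icosl encodes the ligand of ICOS, and its 2 probes differed in size of change. They are shown for that reason, the one at base 363 of the transcript whole and the brighter one at 2139 by its first 30 bases.
Icosl at 363, A_52_P432647, chr10:77534559-77534618, + strand: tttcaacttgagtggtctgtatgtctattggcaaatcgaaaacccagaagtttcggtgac
Icosl at 2139, A_55_P2747083, chr10:77541662-77541721, + strand: aatgagtgtagagagaactacttaagtcct
The probe at 363 read −5.52, −5.49 and −5.43 in Ctrl, −3.69, −3.67 and −3.87 at 1 dpi, and −4.92, −5.79 and −5.68 at 3 dpi. The 1 dpi arrays were high and those of Ctrl and 3 dpi overlapped. It rose 3.33-fold at 1 dpi (log2 fold change 1.74 ± 0.21 (SE), adjusted p = 0.000345) and was 3.29-fold lower at 3 dpi than at 1 dpi (−1.72 ± 0.21, adjusted p = 0.000519). After normexp background correction with quantile normalization these changes were 0.57 and −0.64, under 2-fold.

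The Icosl probe at 2139, which stands for the gene, read −2.60, −2.81 and −2.73 in Ctrl, −2.50, −2.40 and −2.23 at 1 dpi, and −2.72, −2.95 and −2.80 at 3 dpi. Its 1 dpi arrays were also above the others, by less. The log2 fold change was 0.34 ± 0.10 (SE) at 1 dpi (adjusted p = 0.0228), or 0.11 relative to the median and 0.02 with arrays scaled to their median, and it was not called. Both probes were thus highest at 1 dpi, and the call of Icosl came from the dimmer one.

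The other 2 members of the B7 and CD40 group were not called. Cd40 read −3.93, −3.86 and −3.81 in Ctrl, −3.72, −4.08 and −3.65 at 1 dpi, and −3.25, −3.24 and −3.37 at 3 dpi. The controls and 1 dpi overlapped and the 3 dpi arrays lay above both, with a log2 fold change of 0.58 ± 0.12 (SE) against Ctrl (adjusted p = 0.00613), which is 1.5-fold, or 0.26 after normexp with quantile normalization. Cd276 read −4.34, −3.11 and −3.11 in Ctrl, −3.21, −3.58 and −3.02 at 1 dpi, and −2.65, −2.77 and −2.84 at 3 dpi. The low control was replicate 1, the array on its own slide. The log2 fold change of Cd276 was 0.25 ± 0.32 at 1 dpi and 0.77 ± 0.32 at 3 dpi (adjusted p = 0.527 and 0.111), and without that array it was −0.16 and 0.36. The Cd276 probe also shared a run of 16 or more bases with 15 probes of other genes, while 14 of the 17 probes of the set shared one with none and 19.4% of all 56605 probes did with at least 1.

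Tnfsf4, which encodes OX40L, showed the largest change of the 9 ligands in both comparisons against Ctrl. Its 2 probes lie next to each other without overlap and are shown by their first 30 bases. They read neighbouring stretches of one gene and are not independent of each other. Their positions, 1549 and 1647, are counted in the different transcripts that the array files give for them.
Tnfsf4 at 1549, A_55_P2723679, chr1:163348278-163348337, + strand: ttttggaccattttcaatagaagattgaaa
Tnfsf4 at 1647, A_55_P2718363, chr1:163348347-163348406, + strand: gtgctacaaatacagtgcttatctcttaaa
The brighter one, which stands for the gene, read −5.18, −5.10 and −4.91 in Ctrl, −0.85, −0.73 and −0.59 at 1 dpi, and −1.70, −1.58 and −1.69 at 3 dpi. The other read −6.04, −6.06 and −5.83 in Ctrl, −1.76, −1.51 and −1.50 at 1 dpi, and −2.50, −2.47 and −2.43 at 3 dpi. In both probes every irradiated array lay far above every control, and the 1 dpi arrays lay above those of 3 dpi.

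The rise of Tnfsf4 was 20.3-fold at 1 dpi (log2 fold change 4.34 ± 0.10 (SE), adjusted p = 2.18e-07) and 10.6-fold at 3 dpi (3.41 ± 0.10, adjusted p = 3.83e-07) by the probe that stands for the gene. By the other it was 20.9-fold and 11.4-fold. These folds depend on the background correction. After normexp with the 75th percentile the log2 fold change of the gene was 3.08 at 1 dpi and 2.21 at 3 dpi, and with quantile normalization 2.76 and 2.0, which is 6.77-fold and 4.0-fold. For the other probe it was 2.72 and 1.88, and 2.28 and 1.68. The gene was called under each. Relative to the median change of all probes the brighter probe changed by 4.12 and 3.34. From 1 to 3 dpi the log2 fold change was −0.94 ± 0.10 (adjusted p = 0.000262), just under 2-fold, and without 1 dpi replicate 1 it was −1.0 and was called.

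Tnfsf9, which encodes 4-1BBL, has 1 probe. It read −2.08, −2.12 and −2.05 in Ctrl, −1.31, −1.21 and −1.31 at 1 dpi, and −0.86, −1.04 and −1.05 at 3 dpi. The groups did not overlap and their order was Ctrl, 1 dpi, 3 dpi. At 3 dpi it was 2.15-fold higher than in Ctrl (log2 fold change 1.1 ± 0.07 (SE), adjusted p = 2.09e-05) and at 1 dpi 1.75-fold (0.81 ± 0.07, adjusted p = 8.8e-05; 0.49 with arrays scaled to their median), which was not called. The call at 3 dpi was lost under 4 other settings, in which the log2 fold change of the gene was between 0.92 and 0.99.

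The receptors to which these ligands bind are carried mainly by T cells, and 6 of 7 were tested, since Cd40lg was not well above background on any array. Of the 6, 2 were called higher in each comparison against Ctrl, Icos and Tnfrsf9, 0 were called lower, and limma called 0 at 3 dpi against 1 dpi. Of all genes it called 12.3% higher and 2.87% lower at 1 dpi, and 6.98% and 1.82% at 3 dpi. At 3 dpi against 1 dpi it called 3.97% higher and 4.82% lower. In the last comparison 4 had an unadjusted p under 0.05 by limma and 4 by the unpaired test of the methods, which also called 0. The shares of all genes were 52.5% and 57.5%. The median log2 fold change of the 6 was 0.88 at 1 dpi, 0.87 at 3 dpi and −0.07 at 3 dpi against 1 dpi. For all genes it was 0.25, 0.11 and −0.11. Tnfrsf9, the receptor of 4-1BBL, read −5.69, −5.69 and −5.85 in Ctrl, −2.39, −2.64 and −2.52 at 1 dpi, and −2.76, −3.04 and −3.15 at 3 dpi. All irradiated arrays lay above all controls. It rose 9.37-fold at 1 dpi and 6.77-fold at 3 dpi (adjusted p = 1.32e-06 and 2.04e-06), but after normexp background correction 4.01-fold and 2.69-fold with the 75th percentile, and 2.76-fold and 2.38-fold with quantile normalization, all called. Icos read −3.55, −3.88 and −3.88 in Ctrl, −2.84, −2.48 and −2.58 at 1 dpi, and −2.12, −2.15 and −2.11 at 3 dpi, and was 2.2-fold and 3.12-fold higher (adjusted p = 0.000202 and 3.81e-05). The call of Icos at 1 dpi was lost under 5 other settings, with log2 fold changes of 0.54 (normexp and quantile normalization) to 0.89 (relative to the median of all genes), and at 3 dpi its change was 1.04 after normexp with quantile normalization, in place of 1.64.

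The other 4 receptors had adjusted p-values under 0.05 at 1 dpi and changes under 2-fold. Ctla4 lay at a log2 fold change of 0.76 at 1 dpi and 0.82 at 3 dpi, which other settings lowered to as little as 0.065 and 0.18. Pdcd1, which encodes PD-1, lay at 0.85 and 0.91, with 0.24 and 0.43 as the lowest values, and without Ctrl replicate 2 it was 1.03 at 3 dpi and was called. These lowest values came after normexp with quantile normalization. Tnfrsf4, the receptor of OX40L, lay at 0.92 and 0.04, and with arrays scaled to their median at 0.60 and −0.086. Cd28 lay at 0.85 and 0.66 by its brightest probe, but its probes differed, and the mean of its probes gave −0.14 and the deposited table −1.63 at 1 dpi. No direction is therefore given for Cd28. Fewer cells of a type and less RNA per cell cannot be told apart in these bulk samples, for the receptors and the ligands alike.

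Beside the 9 ligands, 16 of 18 other ligands of T cell receptors and adhesion partners were tested, since Vtcn1 and Cd70 did not pass the filter on dim probes. At 1 dpi 4 of 16 were called higher and 0 lower, against 12.3% and 2.87% of all genes. At 3 dpi 2 were called higher and 0 lower, against 6.98% and 1.82%. Of these 2, Tnfsf18 passed the filter only through the 3 dpi arrays. At 3 dpi against 1 dpi 0 were called higher and 1 lower, against 3.97% and 4.82%. The median log2 fold changes of the 16 were 0.52, 0.32 and 0.11, and those of all genes 0.25, 0.11 and −0.11. Fgl1, a ligand of the inhibitory receptor LAG-3, rose 3.08-fold at 1 dpi (adjusted p = 1.32e-06) and was 2.4-fold lower at 3 dpi than at 1 dpi. In the deposited table its log2 fold changes were 0.54 and −0.13, and with the mean of its probes the second was −0.81, none of them called. Nectin2, which binds TIGIT and CD226, read −3.15, −2.93 and −2.98 in Ctrl, −1.79, −1.87 and −2.04 at 1 dpi, and −1.40, −1.42 and −1.54 at 3 dpi. It rose 2.17-fold and 2.96-fold (adjusted p = 5.83e-05 and 1.13e-05). The call at 1 dpi was lost under 6 other settings, with log2 fold changes of 0.71 to 0.95.

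Icam1, the adhesion ligand of LFA-1, rose 2.14-fold at 1 dpi (adjusted p = 3.53e-05), and Tnfrsf14, the ligand of BTLA and the remaining call, 2.08-fold (log2 fold change 1.06). The call of Tnfrsf14 was kept under 14 of 25 other settings, and was lost without Ctrl replicate 1 (0.94) and without 1 dpi replicate 1 (0.96) or 2 (0.99). The changes of Nectin2, Icam1 and Tnfrsf14 at 1 dpi were 0.87, 0.85 and 0.81 relative to the median, under 2-fold, and that of Icam1 was 0.78 with arrays scaled to their median. Tnfsf18, which encodes GITRL, was not well above background on any array of Ctrl or 1 dpi. It passed the filter on dim probes only through the 3 dpi arrays. It was called by limma as at least 1.43-fold higher at 3 dpi than in Ctrl (adjusted p = 0.0395). The filter favours such a call, and with no filter on dim probes limma did not make it (adjusted p = 0.0535). This call was lost under 8 of the other settings, and also without Ctrl replicate 1 or 2, 1 dpi replicate 3 or any one 3 dpi replicate (adjusted p from 0.0537 to 0.12).

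CD40 itself and the receptors of OX40L and 4-1BBL belong to a family that signals through TRAF adaptors to NF-κB. Of 13 genes of that route, limma called 0 at 1 dpi, 1 as higher at 3 dpi and 0 between the 2 times. Of all genes it called 12.3%, 6.98% and 3.97% higher in the 3 comparisons and 2.87%, 1.82% and 4.82% lower. The medians of the 13 were 0.09, −0.04 and 0.01. An unadjusted p under 0.05 was found for 9, 7 and 8 of them by limma and for 9, 7 and 9 by the unpaired test of the methods, which called 0, 1 and 0. Of all genes, 62.1%, 41.5% and 52.5% had one by limma and 53.3%, 35.8% and 57.5% by the unpaired test. The call was Traf1, an adaptor that NF-κB itself induces, which read −2.22, −2.28 and −2.18 in Ctrl, −1.18, −1.38 and −1.26 at 1 dpi, and −0.53, −0.78 and −0.78 at 3 dpi. It was 2.89-fold higher at 3 dpi (adjusted p = 1.18e-05) and at 1 dpi 1.94-fold, short of the minimum, which it passed at 2.01-fold without 1 dpi replicate 2. The 12 other genes, among them Nfkb1, Nfkb2, Rel, Rela and Relb, were not called.

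IFN-γ induces PD-L1 through the factor IRF1, and CMTM6 and CMTM4 keep the protein on the cell surface. Of 11 genes of this route, 1 was called higher at 1 dpi and 1 at 3 dpi against Ctrl. At 3 dpi against 1 dpi 1 was called higher and 1 lower. Of all genes 12.3%, 6.98% and 3.97% were called higher in the 3 comparisons and 2.87%, 1.82% and 4.82% lower. The medians of the 11 were 0.04, 0.23 and 0.08. Irf1 read 3.49, 3.41 and 3.34 in Ctrl, 4.89, 4.93 and 4.86 at 1 dpi, and 3.38, 3.23 and 3.29 at 3 dpi. It was highest on the 1 dpi arrays. It rose 2.79-fold at 1 dpi (adjusted p = 3.54e-06), and at 3 dpi it was lower than at 1 dpi (log2 fold change −1.59). Cd274 was highest at 1 dpi as well, and whether Irf1 took part in its change was not tested. Cmtm4 was 2.35-fold higher at 3 dpi than in Ctrl (adjusted p = 0.00705), a call lost after normexp background correction, at 0.82 with the 75th percentile and 0.70 with quantile normalization. Its call at 3 dpi against 1 dpi (1.77) was lost after normexp with the 75th percentile (0.58).

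Genes whose levels followed a called ligand most closely over the 9 arrays, among 24007 genes well above background on all of them, were read as a description. For Tnfsf4 they were Tnfaip6, Phlda3 and Atf3 (Pearson r 0.998 to 0.999). Phlda3 had mean levels of −1.76 in Ctrl, 3.58 at 1 dpi and 2.47 at 3 dpi. For Cd86 they were Dlc1, Il2rb and Clec4n (r = 0.997), which climbed from Ctrl through 1 dpi to 3 dpi. For Tnfsf9 they included Il4ra and Slc13a3 (r = 0.997), and for Cd274 they were 3 features without a gene symbol. With 3 groups of near-equal arrays such r values mainly read the order and spacing of the 3 group means.

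The label megakaryocyte was checked against 13 marker genes, all of which were well above background on all arrays, and 0 of which were called by limma in any comparison on the scale used here. Relative to the median of all genes Gp1ba was called lower at 1 dpi (−1.07) and Gp6 higher at 3 dpi against 1 dpi (1.07), with arrays scaled to their median the same genes were called (−1.13 and 1.15) and Gp1ba also at 3 dpi against 1 dpi (1.07), and in the deposited table Vwf was called lower at 3 dpi (−1.36). Pf4, the brightest of them, read between 6.02 and 6.23 on the 9 arrays. Itga2b, which encodes CD41, lay between 0.19 and 1.04, Gp9 between 1.43 and 2.5, and Gp5, which encodes CD42d, between −1.1 and −0.10. The summed level of the 13, of which Pf4 made up 52.7%, in units of the array's 75th percentile, was 131, 118 and 116 in Ctrl, 131, 120 and 118 at 1 dpi, and 138, 136 and 135 at 3 dpi. Without Pf4 the mean sums were 56.7 in Ctrl, 53.1 at 1 dpi and 71.1 at 3 dpi. Single markers moved, such as Gp6 (0.95 at 3 dpi), Gp9 (0.93 at 3 dpi) and Gp1ba (−0.82 at 1 dpi), and without 1 dpi replicate 1 Gp6 was called at 3 dpi against 1 dpi (1.01, in place of 0.96). An unadjusted p under 0.05 was found for 7, 5 and 9 of them in the 3 comparisons by limma and for 6, 5 and 10 by the unpaired test of the methods, which also called 0. Of all genes, 62.1%, 41.5% and 52.5% had one by limma and 53.3%, 35.8% and 57.5% by the unpaired test.

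Markers of other cells that carry these ligands or their receptors moved between the groups, and genes of one list did not all move alike. Those of macrophages and monocytes, 13 of 13 well above background, summed to 196, 224 and 216 in Ctrl, 383, 348 and 350 at 1 dpi, and 329, 296 and 318 at 3 dpi, but the brightest, Lyz2, made up 69.8% of the sum. Without it the mean sums were 48.6, 84.8 and 138. Of the 13 genes 11 had their highest mean at 3 dpi, and Lyz2 and Cd14 at 1 dpi. At 1 dpi 5 were called higher and 1 lower, which was Cd163, at 3 dpi 10 higher and 0 lower, and at 3 dpi against 1 dpi 6 higher and 0 lower. With 1 array left out the higher counts were 5, 9 to 10 and 5 to 7. Csf1r lost its call at 3 dpi without Ctrl replicate 3 (0.99), and C1qb and C1qc lay at the 2-fold minimum in the last comparison. Of all genes 12.3%, 6.98% and 3.97% were called higher in the 3 comparisons and 2.87%, 1.82% and 4.82% lower. These shares also stand beside the counts of the other marker lists.

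Dendritic cell markers, with Siglech at 61.1% of their sum, summed to 27.3, 41.0 and 41.9 in Ctrl, 69.2, 65.3 and 63.9 at 1 dpi, and 46.9, 43.8 and 42.7 at 3 dpi, and without Siglech to means of 13.7, 20.2 and 20.9. Xcr1 was not well above background on any array. Of the 9 tested, 2 were called higher at 1 dpi, Siglech and Bst2, and 3 lower, Flt3 (−1.65), Cd209a (−1.97) and Ccr7 (−1.96), so this list had no common direction. No direction is given for Siglech, since its log2 fold change was 0.70 without Ctrl replicate 1, in place of 1.08, and −0.15 with the mean of its probes and −2.08 in the deposited table. The call of Flt3 was lost with the mean of its probes (−0.54), and without Ctrl replicate 2 Zbtb46 was called higher (1.07, in place of 0.76). At 3 dpi against Ctrl 1 was called higher, Clec10a (1.98), and 2 lower, Flt3 (−2.14) and Ccr7 (−1.85). At 3 dpi against 1 dpi 2 were called higher, Clec10a (1.93) and Cd209a (1.59), and 0 lower.

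T and NK cell markers, with Nkg7 at 89.5% of their sum, summed to 30.7, 32.5 and 30.9 in Ctrl, 44.5, 41.5 and 41.8 at 1 dpi, and 37.5, 33.9 and 33.1 at 3 dpi, and without Nkg7 to means of 2.99, 4.17 and 4.25. Of these 10 genes 4 had their highest mean at 1 dpi and 6 at 3 dpi, with Ncr1 called higher at 1 dpi (1.02), Ncr1, Cd3g and Klrb1c at 3 dpi, Cd3g and Klrb1c at 3 dpi against 1 dpi, and 0 lower. The call of Ncr1 at 1 dpi was kept under 15 of 25 other settings and was lost without Ctrl replicate 1 (0.91) and without 1 dpi replicate 1 (0.97) or 2 (0.98), and at 3 dpi it was lost after normexp with either scaling (0.93 and 0.80). Those of Cd3g and Klrb1c at 3 dpi against 1 dpi were lost after normexp with the 75th percentile (0.59 and 0.84). B cell markers, 11 of 11 well above background and led by Cd79b, summed to 30.8, 29.7 and 30.4 in Ctrl, 7.84, 7.58 and 7.79 at 1 dpi, and 7.49, 6.89 and 7.09 at 3 dpi, with 8 and 9 of 11 called lower than in Ctrl. Without Cd79b the B cell mean sums were 18.8, 2.99 and 3.12.

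Stromal markers, 10 of 10 well above background and led by Cxcl12, summed to 8.66, 8.09 and 8.34 in Ctrl, 37.6, 33.1 and 35.7 at 1 dpi, and 63.1, 59.0 and 62.9 at 3 dpi. Without Cxcl12 the stromal mean sums were 5.08, 14.0 and 24.7. Endothelial markers, 7 of 8 well above background on all arrays and led by Stab2, summed to 2.81, 2.52 and 2.58, then 6.04, 5.22 and 5.51, then 11.3, 9.48 and 9.75. Of these genes 7 of 10 and 8 of 8 had their highest mean at 3 dpi. Neutrophil markers, 8 of 10 with their highest mean at 1 dpi and led by Mpo, summed to 1162, 1235 and 1218 in Ctrl, 2063, 1923 and 1897 at 1 dpi, and 1315, 1178 and 1245 at 3 dpi, and erythroid markers, led by Hba-a1, to 109, 88.8 and 91.8, then 247, 202 and 199, then 35.9, 36.2 and 33.5. Without Hba-a1 the erythroid mean sums were 14.2, 7.6 and 5.79, and 6 of 9 of these genes had their highest mean in Ctrl. The part of these cells in the changes of the ligands was not tested.

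**Figure D3:**
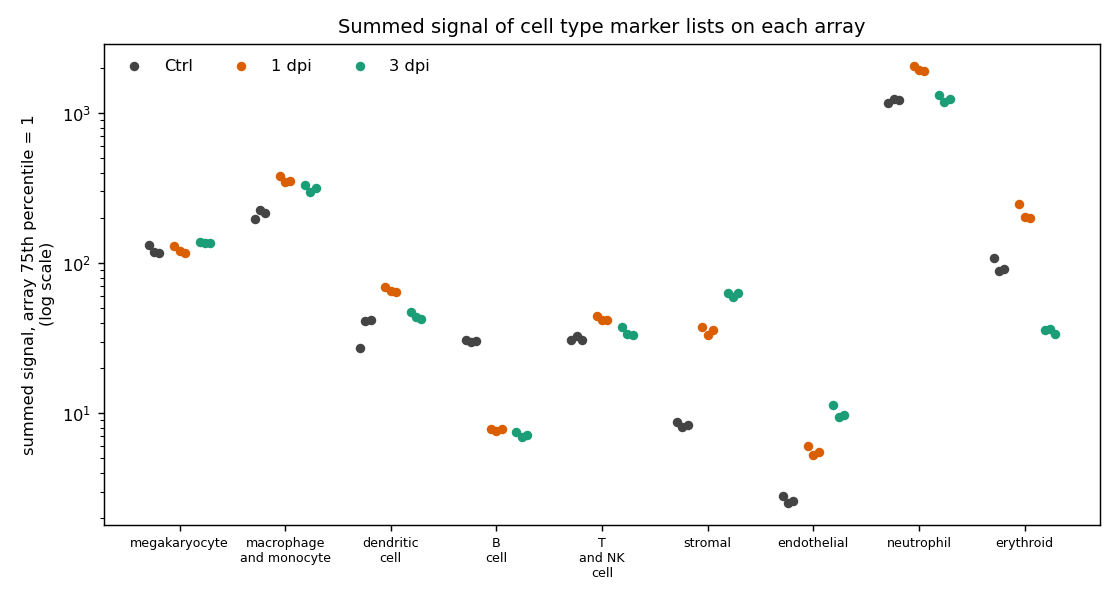
Summed level of each marker list on each array (y axis, log scale, in units of the array's 75th percentile) for each of 9 lists (x axis), with colours for the 3 groups. The megakaryocyte sum is nearly level (ratio to Ctrl 1.01 at 1 dpi and 1.12 at 3 dpi), the B cell sum drops to 0.255 and 0.236 of Ctrl, and the stromal sum reaches 4.24 and 7.38 times Ctrl. Without the brightest gene the mean sums in Ctrl, 1 dpi and 3 dpi are 18.8, 2.99 and 3.12 for B cells. The stromal ones are 5.08, 14.0 and 24.7.

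Scaling decides how many of all genes go each way, and the split is given for that reason. Of the genes called at 1 dpi against Ctrl, 81.1% were higher with the 75th percentile, 56.3% after quantile normalization, 48.8% with arrays scaled to their median and 54.9% relative to the median of all genes. At 3 dpi against Ctrl the share was 79.4%, and 71.5%, 71.9% and 71.8% under these alternatives, and at 3 dpi against 1 dpi it was 45.2%, and 62.9%, 67.2% and 58.1%. With normexp background correction and the 75th percentile it was 87.8%, 79.5% and 24.9%, and with normexp and quantile normalization 68.7%, 79.6% and 52.7%. Tnfsf4 was called higher at both times against Ctrl under each of these scalings, as was Cd86 at 3 dpi.

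**Figure D4:**
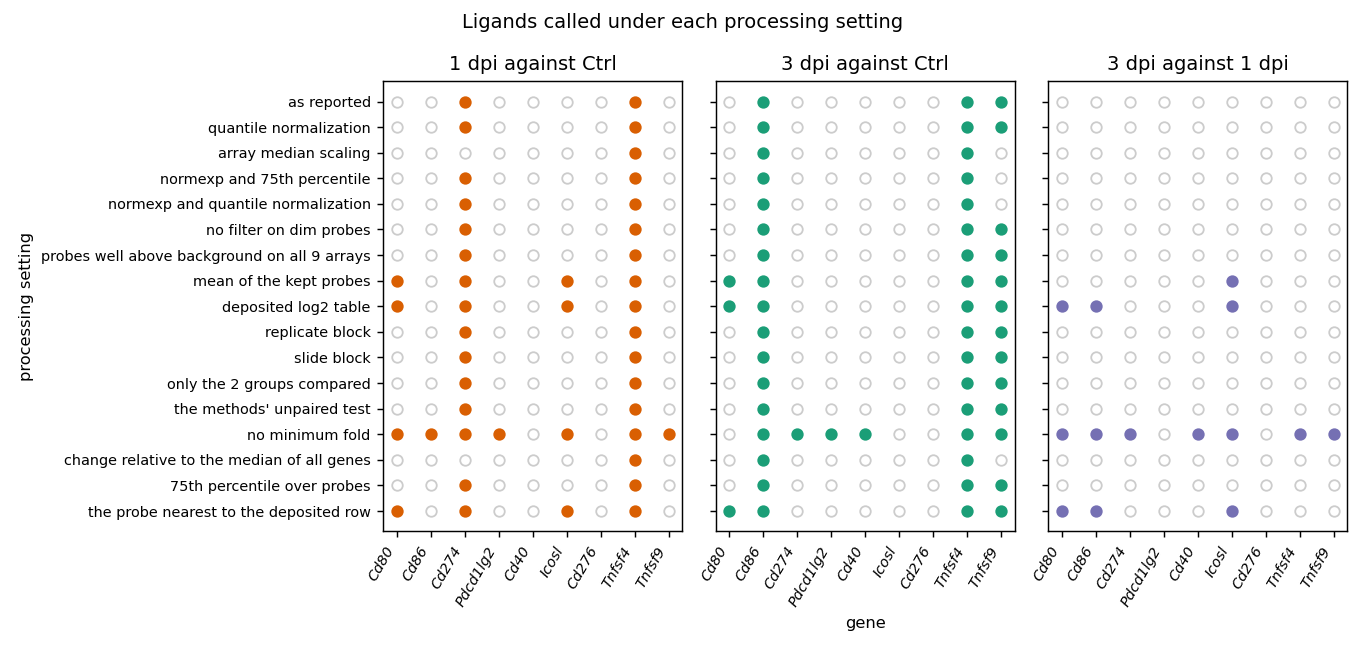
Ligands called (x axis, by gene) under each processing setting (y axis) in the 3 comparisons, with a filled symbol for a call. Tnfsf4 is called at 1 and 3 dpi against Ctrl under every setting shown, while Cd80 and Icosl are called only where other probes than the brightest enter or no minimum fold is set. A filled symbol gives no direction. At 1 dpi Cd80 is called higher with the mean of the probes (1.70) and in the deposited table (2.61), and lower with no minimum fold (−0.68).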

How the data were processed

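The authors deposited, for each array, the spot intensity from Agilent Feature Extraction 10.7.1.1 (per the file headers), with background subtracted and spatial trends removed and no scaling between arrays. A second deposited file holds log2 values, with a single value for each gene and array, whose making is not given in the sources used here. Its columns had medians of 5.79 to 5.87 and followed the scanner values (Spearman 0.73 to 0.78), and it served as an alternative only. The methods describe a chip of another maker, so its labelling and scanning steps are not described here.

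Of 62976 spots per array 3671 were controls and were left out, as were spots marked as outliers, which removed 20 of 56605 probes. Spots of one probe were averaged as log2 intensity. No spot was saturated, and 69.1% to 81.8% of spots were well above background, which with 3 arrays per group limits the precision. Before scaling, the 1 dpi arrays were the dimmest. Their 75th percentile was 9.33 to 9.45 in log2 intensity, against 10.03 to 10.66 in Ctrl and 10.37 to 10.55 at 3 dpi. Replicates correlated with r of 0.987 to 0.998 across the genes tested, each read by its brightest kept probe. Members were matched by the gene name in the array files. Other probes were named through the RefSeq accession where GRCm38.p6 held it (32984 probes), and 23601 kept the array's name.

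Each array's 75th percentile over its non-control spots was subtracted. A probe was kept if some group had it well above background on each of its 3 arrays (44300 probes), and the probe with the highest mean stood for its gene. All 3 groups were fitted in one model with limma 3.58.1 in R 4.3.3 (files read with data.table, version 1.17.8; figures with matplotlib 3.10.9 in Python 3.11.15), over all genes and, apart from that, over all probes. Values of single probes of the 9 ligands come from the fit over probes, all counts of genes and all values of other genes from the fit over genes. The code was tested on simulated data. Where a probe was not well above background on any array of a group, its fold is a bound, from the brighter group's mean against a floor, which per array is the dimmest signal still well above background, or the probe's own signal if that is brighter.

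The named genes are all members and receptors, of each other list in each comparison up to 3 called genes with the largest change whose groups do not overlap, the marker genes given by value or as the brightest of a list, and the 3 genes most like each called member. From these lists 1 further gene is left out, and it is not reported here. Tnfrsf14, the genes named as not called and the markers named for their call or group of highest mean were added after their values were seen. Members and lists were chosen with earlier results of these data known. The search for shared runs of at least 16 bases and the choice of the sequences shown followed after values were seen. Alternatives covered scaling, background correction, dim-probe filter, probe choice, deposited values, replicate number and slide as covariates, samples in the fit, test, minimum fold and each array left out. With the replicate number as a block 2, 3 and 0 members were called in the 3 comparisons.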

Additional observations from a re-analysis of the deposited data

Results flagged for a closer look

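For 4 of the 17 probes, 1 higher and 3 lower, the effect of IR at 3 dpi was called different from that at 1 dpi. The direct test was the limma comparison of 3 dpi with 1 dpi, in which the shared controls cancel, with the 2-fold minimum. Of all probes, 3.75% were called higher and 5.03% lower. With no minimum fold 15 of the 17 probes passed. The share of all probes that did so was not computed. In the separate fit over genes, 44.6% of all genes passed. The effect of Cd80 was smaller at 3 dpi by the probe A_52_P244005 (log2 difference −1.07, adjusted p = 4.91e-05) and by the probe A_66_P130432 (−1.14, adjusted p = 2.26e-05), with all 3 arrays of 3 dpi under all 3 of 1 dpi. Both calls were lost with arrays scaled to their median (−0.88 and −0.95), and the first also relative to the median change of all probes (−0.94) and after normexp background correction (under 2-fold with the 75th percentile, −0.91 with quantile normalization). The Cd80 probe A_51_P418295 differed by only −0.35 (adjusted p = 0.0161), under 2-fold. The Cd80 probe that stands for the gene differed the other way, by 0.42. The effect on Cd86 was larger at 3 dpi by the probe A_52_P145861 (1.21, adjusted p = 0.00026), a call lost after normexp with the 75th percentile (0.62). The 3 other Cd86 probes differed by 0.49, 0.94 and 0.98, under 2-fold. Of these, A_51_P174723 and A_55_P1971951 were called relative to the median (1.07 and 1.11), with arrays scaled to their median (1.13 and 1.17) and after quantile normalization (1.17 and 1.02), and the latter also with the percentile over probes (1.01), without 1 dpi replicate 1 (1.02) and without 3 dpi replicate 2 (1.01). After normexp with the 75th percentile the difference of A_51_P174723 fell to 0.21. The effect on Icosl was smaller at 3 dpi by the probe A_52_P432647 (−1.72, adjusted p = 0.000519; −0.64 and not called after normexp with quantile normalization), and by the other Icosl probe by −0.44.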

How the results depend on the processing

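The analysis was repeated under 22 other settings, 9 of which left out 1 array each, and 3 that were chosen after seeing the data, namely change relative to the median of all genes, the probe nearest to the deposited values, and the 75th percentile over averaged probes. Of 21 called values of members and their probes, 12 kept their call and 0 changed sign under all settings run for them, which were 25 for genes and 22 for single probes. Of 51 values called or not, 12 changed sign under at least 1. Where no cause is given below, the cause was not tested.

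The count of ligands called at 1 dpi against Ctrl, 2 as reported, was 1 with arrays scaled to their median, 1 relative to the median of all genes, 4 with the mean of the probes, 4 in the deposited table, 4 with the nearest probe and 7 with no minimum fold. At 3 dpi against Ctrl it was 3 as reported, 2 with arrays scaled to their median, relative to the median of all genes and after normexp with either scaling, 4 with the mean of the probes, in the deposited table and with the nearest probe, and 6 with no minimum fold. At 3 dpi against 1 dpi, where the reported count was 0, it was 1 with the mean of the probes, 3 in the deposited table, 3 with the nearest probe and 7 with no minimum fold. The counts of ligands pool both directions. With no minimum fold Cd80 was called lower at 1 dpi (−0.68) and higher at 3 dpi against 1 dpi (0.42), opposite to its calls through other probes. Of the 17 probes of the set, 14 at 1 dpi against Ctrl and 15 at 3 dpi against 1 dpi passed with no minimum fold. The share of all probes that did so was not computed. In the fit over genes, which also gave the counts of ligands, 55.9%, 32% and 44.6% of all genes passed with no minimum fold in the 3 comparisons. At 3 dpi against 1 dpi 2 probes of the set passed after normexp background correction with the 75th percentile and 2 with quantile normalization.

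Of all genes, 2799, 1292 and 1603 were called in the 3 comparisons after normexp with the 75th percentile, 1667, 1147 and 1088 after normexp with quantile normalization, and 16443, 9416 and 13125 with no minimum fold, in place of 4468, 2587 and 2588. With no filter on dim probes 4489 were called at 3 dpi against 1 dpi.

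Leaving out 1 array at a time gave 2 to 2 ligands at 1 dpi and 3 to 3 at 3 dpi against Ctrl, and 0 to 1 at 3 dpi against 1 dpi, where the 1 was Tnfsf4 without 1 dpi replicate 1. For probes of the set it gave 7 to 7, 10 to 10 and 4 to 6, and for all genes 3561 to 5367, 2347 to 2768 and 2264 to 2812. Signs of values that were not called changed in the ranges −0.16 to 0.45 for Cd276 and −0.031 to 0.18 for Cd40 at 1 dpi, −0.25 to 0.18 for the Icosl probe A_52_P432647 and −0.027 to 0.096 for Tnfrsf4 at 3 dpi, and −0.032 to 0.028 for Pdcd1lg2 and −0.078 to 0.27 for Pdcd1 at 3 dpi against 1 dpi.

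Other changes of sign in log2 fold change were as follows, all of values that were not called. For Cd80 the mean of the probes gave 1.70, 1.16 and −0.54 in the 3 comparisons, the deposited values 2.61, 1.49 and −1.12, and the nearest probe 2.69, 1.55 and −1.14, because other probes than the brightest enter. At 1 dpi Cd86 was −0.18 in the deposited table, its probe A_51_P174723 −0.044 after quantile normalization and −0.020 after normexp with it, and its probe A_52_P145861 −0.20 with median scaling, −0.11 relative to the median, −0.18 after quantile normalization and −0.10 after normexp with it. Cd40 at 1 dpi was −0.26 with median scaling, −0.20 relative to the median, −0.30 in the deposited table, −0.30 after quantile normalization and −0.17 after normexp with it, and at 3 dpi against 1 dpi −0.090 after normexp with the 75th percentile. Cd276 at 1 dpi was −0.067 with median scaling, −0.092 in the deposited table, −0.091 after quantile normalization, −0.11 after normexp with it and −0.16 with the slide as a covariate. The Icosl probe A_52_P432647 at 3 dpi was −0.10 with median scaling, −0.051 relative to the median, −0.26 after quantile normalization, −0.070 after normexp with it and −0.022 after normexp with the 75th percentile, and Icosl was 0.020 with the nearest probe. Pdcd1lg2 at 3 dpi against 1 dpi was 0.19 with median scaling, 0.11 relative to the median, 0.16 in the deposited table, 0.16 after quantile normalization, 0.11 after normexp with it and 0.025 with the percentile over probes.

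Among other genes, Cd28 at 1 dpi was −1.63 in the deposited table and −0.14 with the mean of the probes, and at 3 dpi against 1 dpi 1.66, 0.64 and, with median scaling, 0.00072. Tnfrsf4 at 3 dpi was −0.086 with median scaling, −0.075 relative to the median and −0.027 with the slide as a covariate. After normexp with the 75th percentile Cmtm4 was 0.24 at 1 dpi, and at 3 dpi against 1 dpi Ctla4 was −0.59, Pdcd1 −0.29 and Tnfsf18 −0.64, and after normexp with quantile normalization Tnfsf18 was −0.0060 at 1 dpi. Tnfsf18 was not well above background in Ctrl or at 1 dpi, so these values say nothing of its direction.

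Replicate numbers did not pair the samples, as 1 of 9 same-numbered pairs had deviations correlated over 0.1 (−0.11 to 0.13) and 4 of 9 arrays correlated best with an array of their own number. With the replicate number as a block 4273, 2498 and 2494 genes and 2, 3 and 0 ligands were called, and of the calls named here that of Tnfsf18 at 3 dpi was lost. The slide as a fixed covariate gives the same fit as leaving out Ctrl replicate 1.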
